A study of Mus musculus with 12 samples.

Results

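The chemokine receptor CXCR3 and its 3 ligands, CXCL9, CXCL10 and CXCL11, were examined as the transcripts Cxcr3, Cxcl9, Cxcl10 and Cxcl11, which are 4 of the 770 genes on the nCounter mouse PanCancer Immune Profiling Panel. They were taken by their symbols, and no threshold on their counts was used. The panel counts barcoded probes hybridized to RNA, and it was run on 12 A20 tumors, each from a different mouse. A20 is a B-cell lymphoma line of the Balb/c strain, and A20 cells were implanted under the skin of young adult female Balb/c mice. Starting about 7 days later, the tumor was injected 3 times, every other day, with PBS (4 mice), with GLA-SE (4 mice) or with the emulsion SE alone (4 mice), and it was removed 2 h after the last injection. GLA-SE, called G100 in the study, is the synthetic TLR4 agonist glucopyranosyl lipid A, given as 10 µg in 50 µl of 2% stable emulsion. The volume and strength of SE given alone are not in the labels. Every tumor thus holds A20 cells together with host cells, in mice with an intact immune system, and the counts come from whole tumors.

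CXCL9, CXCL10 and CXCL11 are small secreted proteins that bind CXCR3, a receptor found mainly on activated CD8 T cells, type 1 helper T cells and NK cells, and they draw these cells into inflamed tissue and tumors. All 3 genes are classical targets of interferon-gamma, a cytokine of T cells and NK cells. Cxcl10 can also be switched on by type I interferon and by NF-kappaB, both of which lie downstream of TLR4. Macrophages, dendritic cells, endothelium and fibroblasts are known sources of the ligands.

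The 3 ligand genes lie in 1 cluster on mouse chromosome 5, and Cxcr3 lies on the X chromosome. In the RefSeq annotation of GRCm38.p6, Cxcl10 lies between Art3 and Cxcl11, and Cxcl9 lies on the other side of Art3. RefSeq lists Cxcl11 as a transcribed pseudogene in this build, which is of the C57BL/6J strain, whereas the tumors and mice here are Balb/c. RefSeq promoters (250 bases before and 50 bases after the start of transcription) were found for 3 of the 4 genes, Cxcl9, Cxcl10 and Cxcr3. The promoters of Cxcl9 (chr5:92328030-92328329, minus strand) and Cxcl10 (chr5:92348840-92349139, minus strand) are shown because both ligands rose with GLA-SE. Capitals mark matches to 3 motifs searched on both strands, namely the ISRE core (GAAANNGAAA), the GAS element (TTCNNNGAA) and kappaB.
Cxcl9: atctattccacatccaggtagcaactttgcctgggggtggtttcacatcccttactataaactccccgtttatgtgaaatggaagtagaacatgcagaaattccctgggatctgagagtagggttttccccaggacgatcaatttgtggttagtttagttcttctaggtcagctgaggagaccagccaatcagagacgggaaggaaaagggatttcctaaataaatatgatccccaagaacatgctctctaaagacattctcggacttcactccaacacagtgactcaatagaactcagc
Cxcl10: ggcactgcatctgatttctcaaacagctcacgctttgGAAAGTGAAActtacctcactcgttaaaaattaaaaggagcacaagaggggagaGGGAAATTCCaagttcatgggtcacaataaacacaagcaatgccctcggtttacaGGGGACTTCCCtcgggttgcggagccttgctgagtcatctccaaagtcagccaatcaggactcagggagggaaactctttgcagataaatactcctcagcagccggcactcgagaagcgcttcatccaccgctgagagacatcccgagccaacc
The Cxcl10 window held 1 match to the ISRE core, between 213 and 204 bases before the start. It also held kappaB matches between 159 and 150 bases and between 104 and 94 bases before the start, the latter a pair of overlapping matches. The Cxcl9 and Cxcr3 windows (Cxcr3 at chrX:101734098-101734397, minus strand) held no match to any of the 3, which says only that these letters were absent from these 300 bases. Among 32851 promoters of the same length, 3.44% held the ISRE core, 8.3% the GAS element and 8.46% kappaB.

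Total counts lay between 810260 and 1612415 per tumor, and no tumor repeated the counts of another. Counts were divided in each tumor by the geometric mean of 17 reference genes of the panel, and the values given as normalized counts are on this scale. Deposited counts were 1139 to 9465 for Cxcl9, 318 to 3587 for Cxcl10, 76 to 1569 for Cxcl11 and 54 to 155 for Cxcr3, so that counting error alone gave a coefficient of variation of 8.03% to 13.6% for Cxcr3 in a single tumor. The SE tumor of replicate 4 stood apart. The geometric mean of its reference genes was 1011 counts, against 1647 to 3077 in the other SE tumors, and its normalized counts of T cell, macrophage, endothelial and fibroblast genes were high. Comparisons with SE are given with and without it where it moved them. The B cell markers, which are markers of the lymphoma itself, were counted in all 12 tumors, with a mean log2 normalized count over 7 genes of 9.72 to 10.14.

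All 3 ligands were higher in GLA-SE tumors than in PBS tumors. Cxcl9 was counted at 6195, 9828, 6644 and 6987 normalized counts in GLA-SE replicates 1 to 4, and at 2835, 1773, 1921 and 2070 in PBS replicates 1 to 4. The lowest GLA-SE tumor lay above the highest PBS tumor by a wide margin. The means were 7413 ± 1642 and 2150 ± 473 (SD, n = 4 each), a 3.45-fold rise (95% interval 2.53 to 4.70), with a log2 fold change of 1.79 ± 0.20 (SE) and an adjusted p of 0.000219 in edgeR's quasi-likelihood test with Benjamini-Hochberg adjustment over 750 genes.

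Cxcl10, the ligand also known as IP-10, was counted at 1921, 3644, 3898 and 2555 in the GLA-SE tumors and at 947, 613, 526 and 825 in the PBS tumors. The groups did not overlap, and the GLA-SE tumors themselves differed 2.03-fold from lowest to highest. Its means of 3004 ± 928 and 728 ± 193 (SD, n = 4 each) differed 4.13-fold (95% interval 2.69 to 6.34), a log2 fold change of 2.05 ± 0.27 (SE, adjusted p = 0.000436 by edgeR).

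Cxcl11, the ligand that binds CXCR3 most tightly, rose most of the 3. It was counted at 825, 1629, 1301 and 890 in the GLA-SE tumors and at 215, 128, 124 and 141 in the PBS tumors. Again no PBS tumor reached the lowest GLA-SE tumor. The means were 1161 ± 377 and 152 ± 42.4 (SD, n = 4 each), a 7.64-fold difference (95% interval 4.88 to 11.9), with a log2 fold change of 2.93 ± 0.28 (SE, adjusted p = 0.000176 by edgeR).

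Cxcr3 itself rose less, and it did so relative to the reference genes but not with panel median scaling, where its log2 fold change was -0.28. Its normalized counts were 149, 107, 83.7 and 148 in the GLA-SE tumors and 80.1, 58.0, 49.7 and 72.3 in the PBS tumors. The groups did not overlap, but GLA-SE replicate 3 lay only just above PBS replicate 1, a gap smaller than the counting error of either. The means of 122 ± 32.4 and 65.0 ± 13.7 (SD, n = 4 each) gave a 1.88-fold difference (95% interval 1.25 to 2.82) and a log2 fold change of 0.91 ± 0.26 (SE, adjusted p = 0.0129 by edgeR).

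These rises are read against a panel that rose as a whole. In this comparison 512 of 750 genes (68.3%) passed the test as higher, and in 63.6% of genes every GLA-SE tumor lay above every PBS tumor, as it did for all 4 genes here. The exact permutation test gave p = 0.0286 for each of the 4 genes, the smallest that 4 tumors against 4 allow (two-sided). The panel's own median log2 fold change was 0.89. Cxcl11 lay 2.04 above this median, Cxcl10 1.15 and Cxcl9 0.89 (log2), whereas Cxcr3 lay 0.018 above it. In the order of all 750 fold changes, 97.2% of genes lay below Cxcl11, 91.6% below Cxcl10, 88.0% below Cxcl9 and 51.0% below Cxcr3. With each tumor scaled to the panel median, the ligands were still higher in GLA-SE tumors, with log2 fold changes of 0.56 for Cxcl9 (adjusted p = 0.0232), 0.79 for Cxcl10 (0.00420) and 1.68 for Cxcl11 (0.000321), while Cxcr3 was lower at -0.28 (0.457, all by edgeR). Under this scaling 68 genes of the panel were called higher and 285 lower, against 512 and 3 with the reference genes. TMM scaling called 148 higher and 168 lower, and DESeq2 with its own size factors 190 and 152. No rescaling called 351 higher and 17 lower. The 3 ligands were called higher under all of these.

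**Figure D1:**
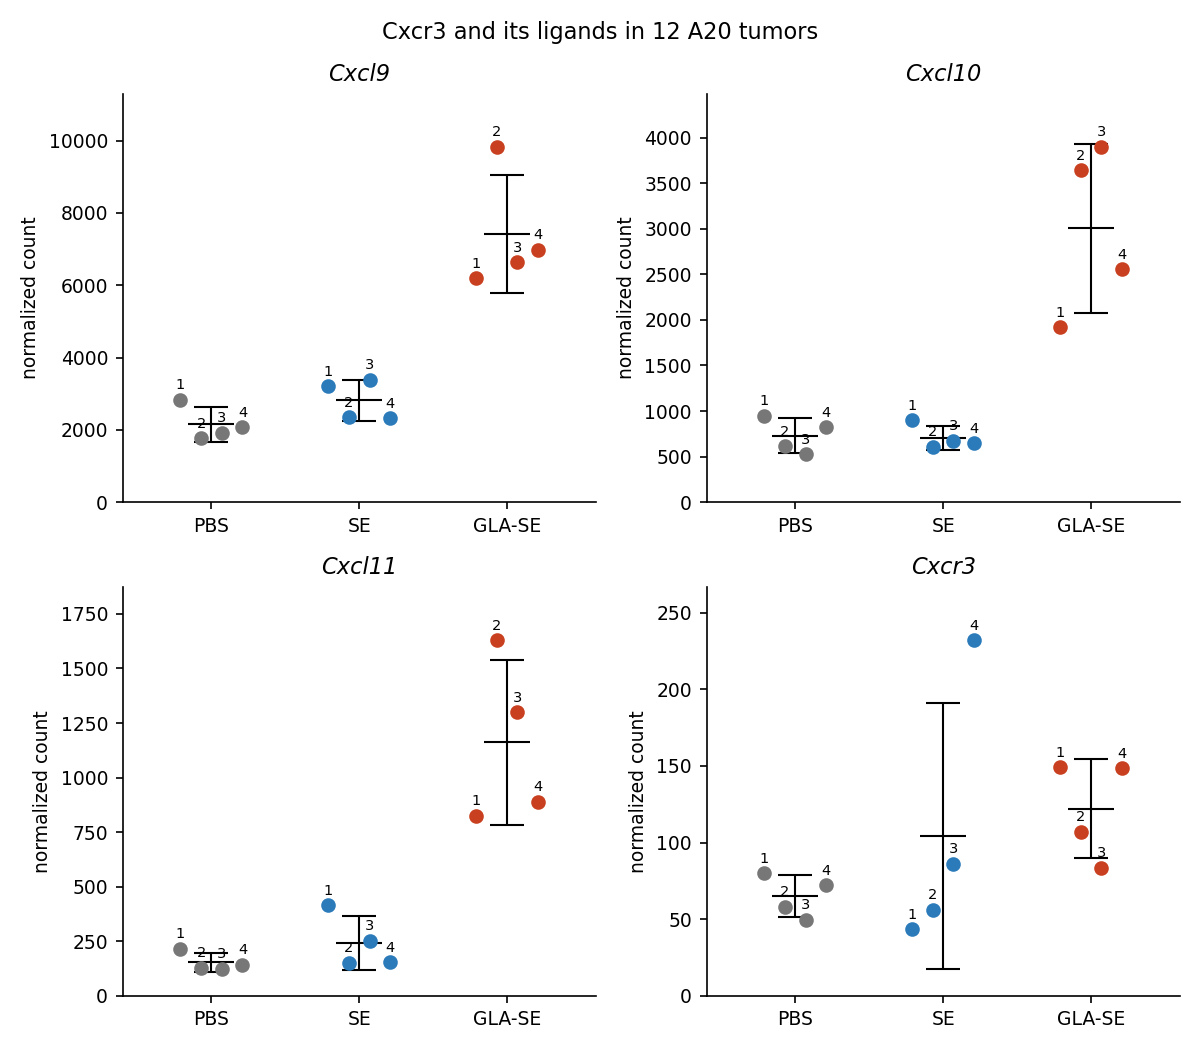
Normalized counts (y axis, linear, from 0) of Cxcl9, Cxcl10, Cxcl11 and Cxcr3 in each tumor by treatment (x axis), with the replicate number at each point and the mean ± SD (n = 4) as lines. The 3 ligands stand clear in all 4 GLA-SE tumors, from 6195, 1921 and 825 normalized counts upward. The highest normalized Cxcr3 of the 12 tumors, 232, is in SE replicate 4, though its deposited count is not the highest.

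The emulsion alone was not followed by a detected change in any of the 4 genes. Cxcl9 was counted at 3200, 2356, 3387 and 2319 in SE replicates 1 to 4, with a mean of 2816 ± 557 (SD, n = 4). It overlapped the PBS tumors, and the log2 fold change of SE against PBS was 0.39 (95% interval -0.07 to 0.85, adjusted p = 0.255 by edgeR). Cxcl10 was counted at 901, 607, 676 and 647 in the SE tumors (708 ± 132), within the range of the PBS tumors, with a log2 fold change of -0.04 (-0.57 to 0.49, adjusted p = 0.894). Cxcl11 was counted at 415, 152, 251 and 155 (243 ± 124), with SE replicate 1 above the others and a log2 fold change of 0.68 (-0.23 to 1.59, adjusted p = 0.284). The upper end of each interval lay below the fold change of the same ligand in GLA-SE tumors against PBS, although a difference between these changes was tested only as GLA-SE against SE. The exact permutation p was 0.114 for Cxcl9, 0.943 for Cxcl10 and 0.171 for Cxcl11.

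The edgeR test called 0 of the 750 genes (0%) in SE against PBS, where 140 had an unadjusted p under 0.05, none of them among the 4 genes. Every SE tumor lay above every PBS tumor in 8.67% of genes, and in 0 of these 4. With limma 0 genes were called, and with DESeq2 9 or 58 depending on its size factors, again with 0 of the 4. Without SE replicate 4 the log2 fold changes of SE against PBS were 0.47 for Cxcl9, 0.0010 for Cxcl10 and 0.85 for Cxcl11, with adjusted p = 0.413, 0.998 and 0.413 by edgeR.

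All 3 ligands differed between the tumors given GLA-SE and those given SE. Both groups received the emulsion, but its volume and strength in the SE group are not in the labels. Cxcl10 was 4.24-fold higher with GLA-SE (95% interval 2.75 to 6.54), a log2 fold change of 2.09 ± 0.27 (SE, adjusted p = 0.00974 by edgeR). Cxcl11 was 4.76-fold higher (2.49 to 9.09), a log2 fold change of 2.25 ± 0.41 (SE, adjusted p = 0.0271). Cxcl9 was 2.63-fold higher (1.85 to 3.74), a log2 fold change of 1.40 ± 0.22 (SE, adjusted p = 0.0171). For each ligand every GLA-SE tumor lay above every SE tumor (exact permutation p = 0.0286), which held for 14.4% of the panel. With panel median scaling (0.45 for Cxcl9, 1.07 for Cxcl10 and 1.18 for Cxcl11, log2) and with TMM scaling (0.89, 1.53 and 1.64) the ligands kept their direction but none was called, whereas all 3 were called with no rescaling (adjusted p = 0.0338 to 0.0499 by edgeR) and Cxcl10 and Cxcl11 by DESeq2 with its own size factors.

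Of the 750 genes, 16 (2.13%) passed the edgeR test in GLA-SE against SE, all of them higher, and 3 of the 16 were these ligands. Among the other 13 were Arg1, Clec4n, Fpr2, Gbp2b, Gbp5, Gzmb, Irf1, Itgal, Mmp9, Prf1, Tnfsf4 and Zbp1. Without SE replicate 4, 101 genes (13.5%) passed as higher, among them Cxcl9 (log2 fold change 1.31, adjusted p = 0.0180), Cxcl10 (2.04, 0.0146) and Cxcl11 (2.09, 0.0253). The adjusted p of the ligands was sensitive to single tumors, although the fold changes moved little. Cxcl10 lost its call without SE replicate 3 (adjusted p = 0.0531). Cxcl9 lost it without GLA-SE replicate 2 or 4 or SE replicate 1, 2 or 3 (0.0513 to 0.0767), and Cxcl11 without GLA-SE replicate 2, 3 or 4 or SE replicate 2 or 3 (0.0613 to 0.116).

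Cxcr3 was the exception in the SE tumors. It was counted at 43.5, 56.2, 86.2 and 232 normalized counts in SE replicates 1 to 4, a 5.34-fold range. On this scale the value of replicate 4 was above that of every other tumor of the study. Its deposited count of 114 was below the 155 and 146 of GLA-SE replicates 1 and 4, so this rank depends on the scaling by its low reference genes. The other 3 SE tumors spanned about the PBS range. The mean of 104 ± 86.9 (SD, n = 4) therefore rested on 1 tumor. The log2 fold change was 0.67 in SE against PBS (95% interval -0.60 to 1.94, adjusted p = 0.404) and 0.23 in GLA-SE against SE (-1.07 to 1.54, adjusted p = 0.888, both by edgeR), with exact permutation p = 0.629 and 0.429. Without SE replicate 4 they were -0.07 (adjusted p = 0.934) and 0.98 (95% interval 0.12 to 1.84, adjusted p = 0.105). In that tumor the ligands were not high. Its Cxcl9, at 2319, was the lowest of the SE tumors, and its Cxcl10 and Cxcl11, at 647 and 155, lay within the range of the other 3.

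In order of level, PBS and SE did not differ beyond their spread for any ligand, and GLA-SE was highest for all 3. For Cxcr3 the order of means was PBS, SE and GLA-SE, with SE overlapping both of its neighbours, and without SE replicate 4 the fold change of SE against PBS was below 0.

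Ratios of counts within a tumor do not depend on the scaling, and they showed whether the 4 genes moved in step. They are ratios of probe counts, and since probes differ in efficiency they are compared between groups and not read as ratios of transcripts. The ratio of Cxcl11 to Cxcl9 was 0.0651 to 0.0761 with PBS and 0.127 to 0.196 with GLA-SE. It was 2.17-fold higher with GLA-SE without overlap (exact permutation p = 0.0286). The ratio of Cxcl11 to Cxcl10 was 0.172 to 0.238 with PBS and 0.334 to 0.447 with GLA-SE, 1.84-fold higher and again without overlap. Cxcl10 and Cxcl9 rose nearly in step against PBS, with a ratio of 0.274 to 0.399 in PBS tumors and 0.310 to 0.587 in GLA-SE tumors (exact permutation p = 0.400).

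Against PBS the ligands also gained on their receptor. The number of Cxcl9 counts per Cxcr3 count was 28.3 to 37.9 in PBS tumors and 41.2 to 91.1 in GLA-SE tumors. For Cxcl10 it was 10.4 to 11.7 and 12.8 to 46.0, and for Cxcl11 1.94 to 2.66 and 5.49 to 15.4. The fold differences were 1.87, 2.21 and 4.06, and none of the 3 ratios overlapped between GLA-SE and PBS. For Cxcl9 and Cxcl10 the gap was narrow (37.9 to 41.2 and 11.7 to 12.8), about the size of the counting error of Cxcr3 in a single tumor. In SE tumors the ratios were 9.95 to 72.0, 2.78 to 20.3 and 0.668 to 9.36, with the lowest value of each in SE replicate 4. All 3 overlapped between SE and GLA-SE (exact permutation p = 0.143, 0.0857 and 0.0857). The log2 differences of GLA-SE from SE were 0.90, 1.55 and 1.82, and fell to 0.32, 1.02 and 1.16 without SE replicate 4. Among the GLA-SE tumors replicate 3 had the lowest Cxcr3 and the highest Cxcl10.

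Of the ligand ratios, only that of Cxcl11 to Cxcl10 was without overlap between SE and PBS tumors. It was 0.240 to 0.462 with SE, above all PBS tumors and 1.52-fold higher on average (exact permutation p = 0.0286). The gap ran only from 0.238 (PBS replicate 3) to 0.240 (SE replicate 4). It was smaller than the counting error of Cxcl11 in these tumors (7.67% and 11.5%). Between SE and GLA-SE this ratio did not differ detectably (exact permutation p = 0.343). The ratios of Cxcl10 to Cxcl9 and of Cxcl11 to Cxcl9 overlapped between SE and PBS (exact permutation p = 0.0857 and 0.743). The ratio of Cxcl10 to Cxcl9 was 0.200 to 0.282 with SE, 1.57-fold higher with GLA-SE without overlap (exact permutation p = 0.0286). The ratio of Cxcl11 to Cxcl9 overlapped between SE and GLA-SE in 1 tumor, SE replicate 1 at 0.130, and reached an exact permutation p of 0.0571. Altogether 21 ratio tests were run. The 7 with the smallest possible p of 0.0286 had an adjusted p of 0.0857 over the 21, so that none passed 0.05 after adjustment. With 4 tumors against 4, a pass would have needed more of the 21 tests at that smallest p.

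**Figure D2:**
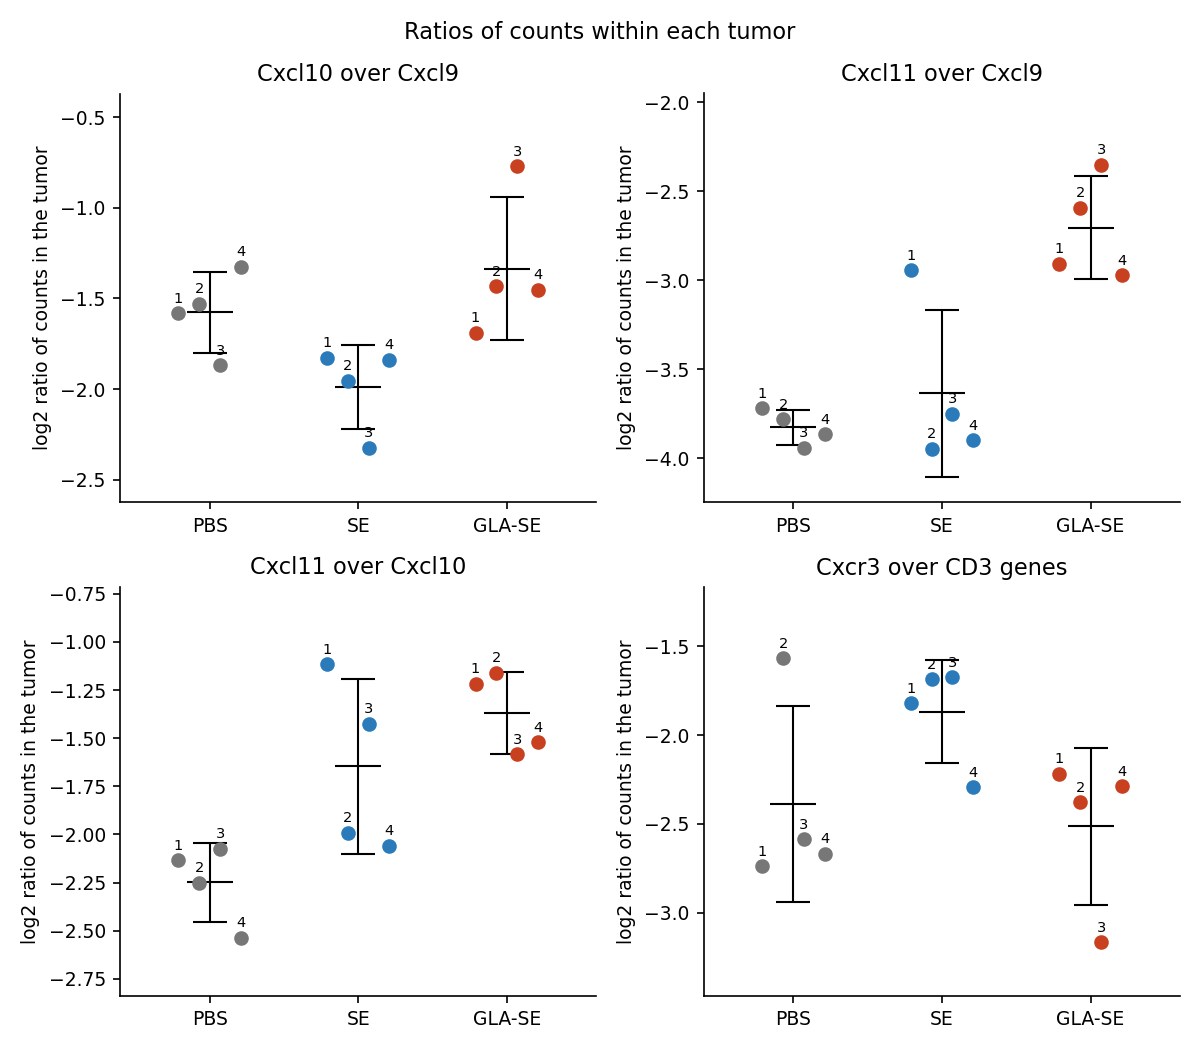
Log2 ratio of counts (y axis) within each tumor by treatment (x axis), with the replicate number at each point and the mean ± SD (n = 4) as lines. Cxcl11 over Cxcl9 and Cxcl11 over Cxcl10 lie higher in every GLA-SE tumor than in every PBS tumor, while Cxcr3 over the mean of Cd3d, Cd3e and Cd3g overlaps in all 3 groups.

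Set against the other chemokines of the panel, the CXCR3 ligands were not the largest changes. Of the other 33 chemokine ligands, 23 rose and 0 fell in GLA-SE tumors against PBS (6 and 5 with panel median scaling), where 68.3% of the panel rose. The median log2 fold change was 1.42 over the 33 (0.89 over the panel). The largest rises were in Cxcl1 (log2 fold change 3.95, adjusted p = 0.00738) and Cxcl2 (3.35, adjusted p = 0.0120), both neutrophil attractants, and in Ccl21a (3.57, adjusted p = 0.0408), which guides CCR7-bearing cells into lymphoid tissue. With panel median scaling Cxcl1 kept its call (adjusted p = 0.0291) and Cxcl2 did not (0.0610). Ccl21a lost its call with panel median (0.143), TMM (0.119) and no rescaling (0.0627). Its groups overlapped (exact permutation p = 0.229), and its mean was 1205 ± 1854 normalized counts with GLA-SE, 101 ± 101 with PBS and 3696 ± 6513 with SE (SD, n = 4 each). Ranked by fold change among all 36 ligands, Cxcl11 was at 6, Cxcl10 at 11 and Cxcl9 at 14. Against SE their ranks were 3, 5 and 9, but 9, 11 and 15 without SE replicate 4. In that comparison 0 of the other 33 ligands passed the edgeR test, with a median log2 fold change of 0.50 (0.22 over the panel) with SE replicate 4 and 1.17 (0.61) without it. At an unadjusted p under 0.05 there were 7 of the 33, limma called 1 higher, DESeq2 called 5 or 6 higher and 1 lower depending on its size factors, and edgeR without SE replicate 4 called 4. In SE against PBS edgeR called 0 of the 33 (9 at an unadjusted p under 0.05, 0 by limma). DESeq2 called 3 higher and 1 lower with the reference gene size factors, and 0 higher and 3 lower with its own. There Cxcl11, Cxcl10 and Cxcl9 ranked 22, 31 and 27 with SE replicate 4 and 10, 28 and 16 without it.

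Among 17 chemokine receptors Cxcr3 ranked at 8 by fold change in GLA-SE against PBS. Of the other 16, 8 rose and 0 fell (5 and 5 with panel median scaling), where 68.3% of the panel rose. The largest rises were in Cxcr2, the receptor for Cxcl1 and Cxcl2 on neutrophils (log2 fold change 3.20, adjusted p = 0.00596), Ccr7, the receptor for Ccl21a (2.75, adjusted p = 0.00558), and Ccr1 (2.16, adjusted p = 0.000548, all by edgeR). The median over the 16 was 0.87, close to the panel's 0.89. Against SE, edgeR called 0 of the 16 (3 at an unadjusted p under 0.05, 0 by limma, 1 or 2 by DESeq2, and 3 by edgeR without SE replicate 4).

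**Figure D3:**
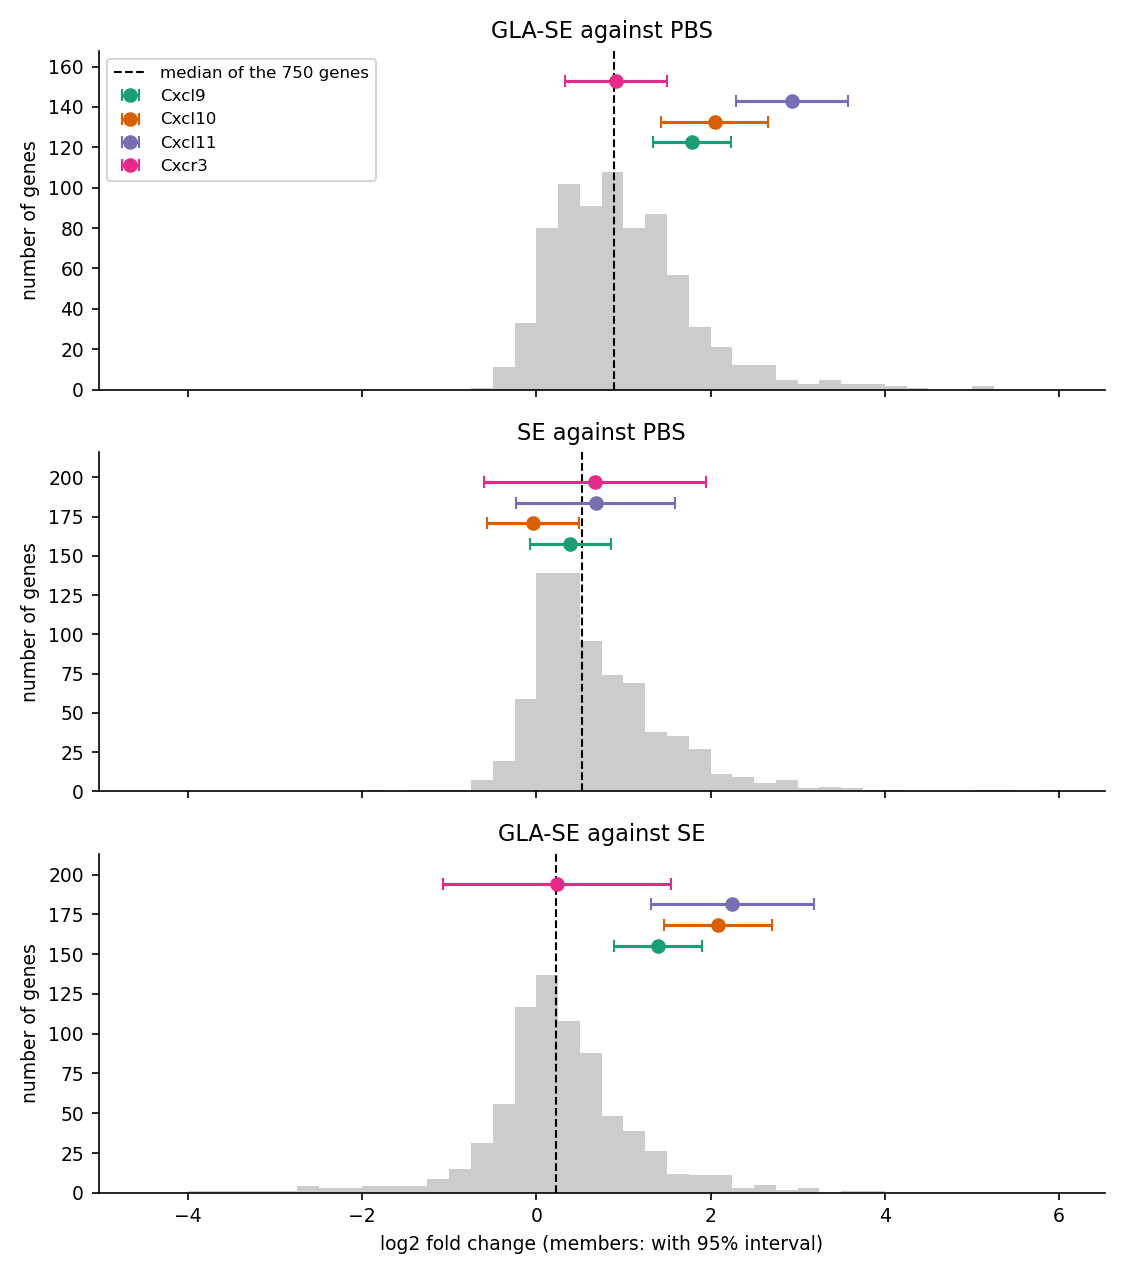
Number of genes (y axis) by log2 fold change (x axis, bins of 0.25) for the 750 tested genes in the 3 comparisons, with the median as a dashed line and the 4 genes placed above with their 95% intervals. Against PBS and against SE the ligands lie in the upper tail for GLA-SE (Cxcl11 at 2.93 and 2.25), whereas Cxcr3 sits near the median (0.91 and 0.23).

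The known inducers of the ligands were read next. Of 17 genes for interferons, their receptors and their signaling, 12 rose and 0 fell in GLA-SE tumors against PBS (1 and 10 with panel median scaling), where 68.3% of the panel rose. Their median log2 fold change was 0.80 (0.89 over the panel). The largest rises were in Irf7 (1.68), Jak2 (1.43) and Ifng (1.33), of which Irf7 alone was still called with panel median scaling (0.43, adjusted p = 0.0368). Ifng, the gene for interferon-gamma, was counted at 38.5, 56.1, 78.2 and 52.9 normalized counts in the GLA-SE tumors and at 27.3, 12.2, 22.6 and 27.0 in the PBS tumors. All 4 GLA-SE tumors were higher, at low counts, with means of 56.4 ± 16.4 and 22.3 ± 7.08 (SD, n = 4 each, adjusted p = 0.00595 by edgeR). In SE tumors Ifng stayed at 24.8 ± 4.08, and in GLA-SE against SE its log2 fold change was 1.18 without overlap (adjusted p = 0.100).

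Irf1, a transcription factor gene of the interferon response, was higher in every GLA-SE tumor than in any other tumor. It was at 4913 ± 1104 with GLA-SE, 2171 ± 530 with PBS and 2440 ± 158 with SE (SD, n = 4 each), with log2 fold changes of 1.18 against PBS (adjusted p = 0.00177) and 1.01 against SE (adjusted p = 0.0333, both by edgeR). Of the 17 genes 2 were called against SE, Irf1 among them, and 5 without SE replicate 4. With panel median scaling neither Irf1 nor Ifng was called, with log2 fold changes against PBS of -0.069 for Irf1 and 0.077 for Ifng. Neither was called with TMM scaling (0.27 and 0.42). Both were called with no rescaling (0.89, adjusted p = 0.00552, and 1.02, adjusted p = 0.0231, by edgeR). The part of interferon in the ligand counts was not tested. The interferon beta gene Ifnb1 was near the limit of counting, with 6 to 16 deposited counts in the 12 tumors, and no difference was detectable at this depth (log2 fold change 0.10 against PBS, adjusted p = 0.811). Ifna1, Ifna2, Ifna4 and Irf3 did not pass either.

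Of 10 further genes known to respond to interferon-gamma, 9 rose and 0 fell against PBS (2 and 3 with panel median scaling), where 68.3% of the panel rose. The median log2 fold change was 1.27 over the 10 (0.89 over the panel). The largest were in Gbp5 (2.44), Cd274, the gene for PD-L1 (1.76), and Gbp2b (1.58), of which Gbp2b was not called with panel median scaling (0.35, adjusted p = 0.112). Against SE 2 passed, Gbp5 (1.95, adjusted p = 0.0271) and Gbp2b (1.44, adjusted p = 0.0129), both guanylate binding proteins of the response to microbes. The median there was 0.99 (0.22 over the panel), 9 of the 10 had an unadjusted p under 0.05, and 5 passed without SE replicate 4. Of 11 genes on the route from TLR4 to NF-kappaB and IRF3, 7 rose and 0 fell against PBS (0 and 9 with panel median scaling), where 68.3% of the panel rose. The largest called rises were in the kinase gene Ikbke (1.67), the adaptor gene Myd88 (0.80) and the kinase gene Tbk1 (0.55). The median of 0.51 over the 11 lay below that of the panel. With panel median scaling Myd88 (-0.48, adjusted p = 0.0440) and Tbk1 (-0.72, adjusted p = 0.00249) were called lower, and Ikbke (0.39, adjusted p = 0.0618) was not called. Against SE 0 of the 11 passed by edgeR (1 at an unadjusted p under 0.05, 0 by limma or DESeq2, and 1 by edgeR without SE replicate 4).

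**Figure D4:**
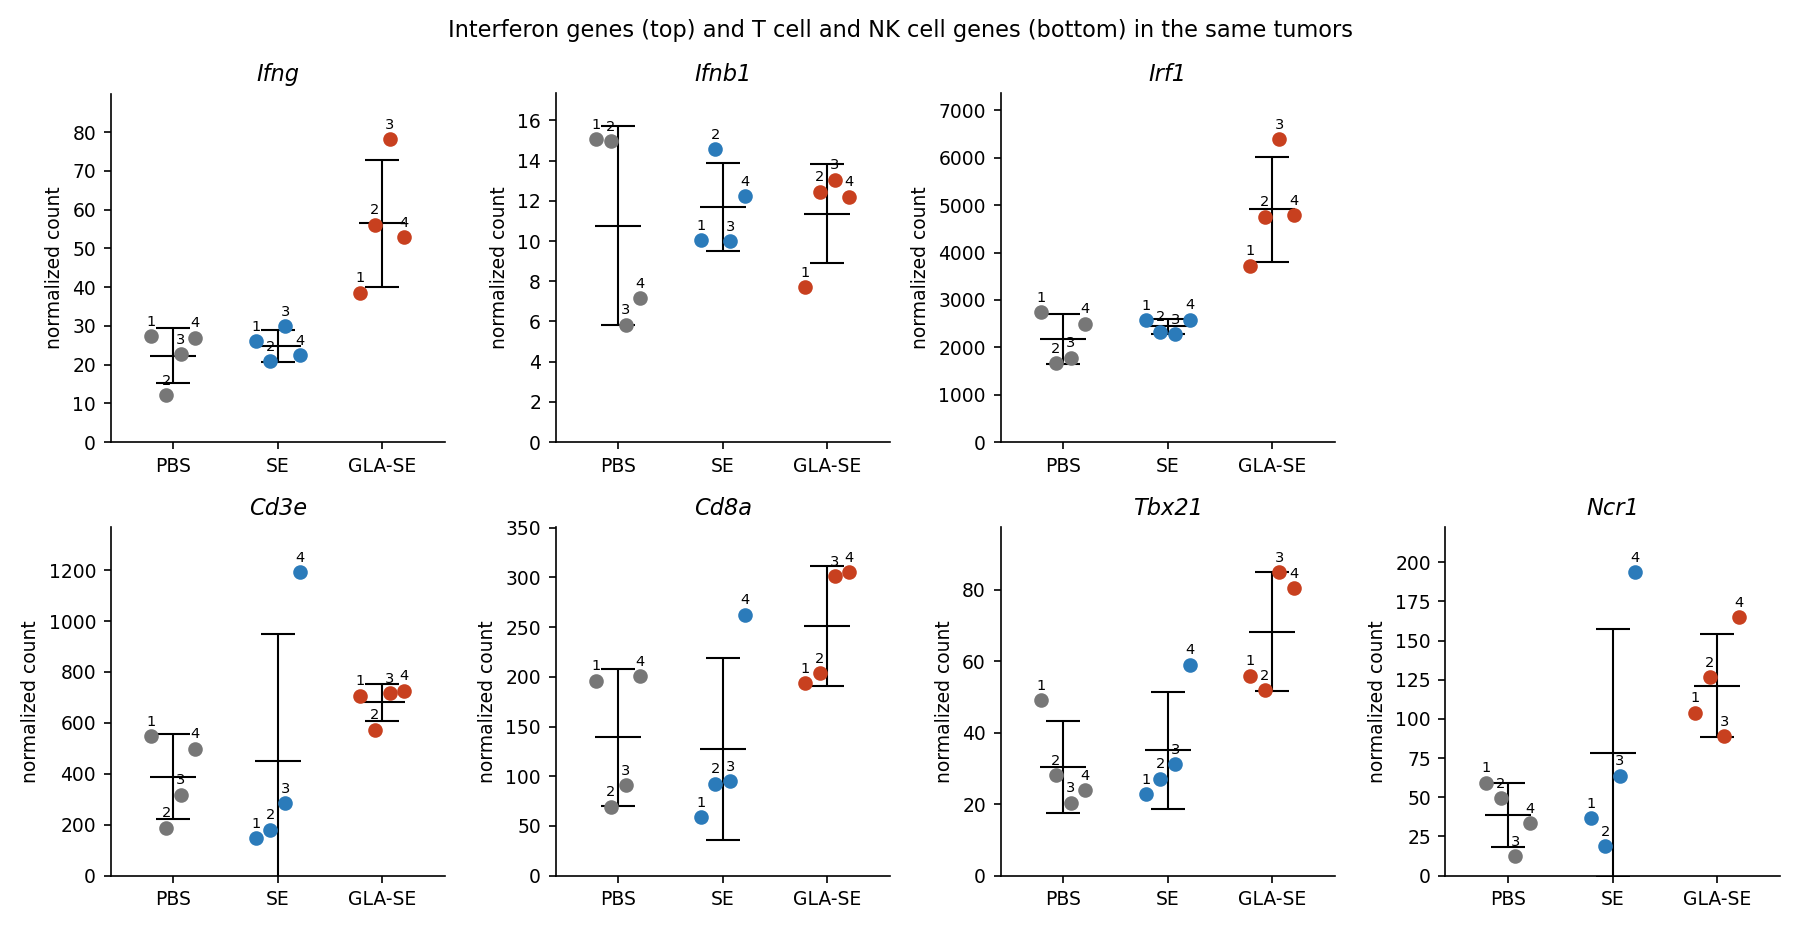
Normalized counts (y axis, linear, from 0) of 3 interferon genes (top) and 4 T cell and NK cell genes (bottom) in each tumor by treatment (x axis), with replicate numbers and mean ± SD (n = 4), where lower SD bars that pass below 0 are cut at the axis. Ifng and Irf1 are highest in the 4 GLA-SE tumors. Normalized Cd3e (1191) and Ncr1 (193) are highest in SE replicate 4, though its deposited counts of both are not the highest.

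CXCR3 is carried by T cells and NK cells, and in whole tumors more of such cells and more RNA per cell cannot be told apart. Of 10 T cell genes 5 rose and 0 fell in GLA-SE against PBS (0 and 1 with panel median scaling), where 68.3% of the panel rose. Their median log2 fold change of 0.82 lay below the panel's 0.89. The largest called rises were in Cd3d (0.94), Cd3g (0.92) and Cd247 (0.82), all parts of the T cell receptor complex. Cd3e was at 681 ± 72.4 with GLA-SE and 388 ± 166 with PBS (SD, n = 4 each, log2 fold change 0.81, adjusted p = 0.0398 by edgeR), and Cd8a, which marks CD8 T cells, had a log2 fold change of 0.85 (adjusted p = 0.0681). The log2 fold change of Cxcr3, 0.91, lay between those of Cd3e and Cd3d. The ratio of Cxcr3 to the mean of Cd3d, Cd3e and Cd3g was 0.150 to 0.338 in PBS tumors and 0.111 to 0.215 in GLA-SE tumors and did not differ detectably (fold difference 0.918, exact permutation p = 0.743).

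The high Cxcr3 of SE replicate 4 came with high T cell genes and a high Ncr1, but not with high NK cell markers as a list. Its Cd3e was 1191 normalized counts against 146 to 284 in the other SE tumors, its Cd8a was 263 against 58.8 to 94.9, and its Ncr1, which marks NK cells, was 193 against 18.7 to 63.7. Over 6 NK cell markers, Ncr1 among them, its mean log2 normalized count of 6.41 lay within the 5.44 to 6.46 of the other SE tumors. Its ratio of Cxcr3 to the CD3 genes, 0.204, was the lowest of the SE tumors (0.283 to 0.313 in the other 3). In SE against PBS that ratio had a log2 difference of 0.52 (exact permutation p = 0.143), and in GLA-SE against SE -0.64 (exact permutation p = 0.0857). Without SE replicate 4 these differences were 0.66 and -0.79. The part of cell numbers in the Cxcr3 counts was not tested.

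Of 10 NK and effector genes, 7 rose and 0 fell in GLA-SE against PBS (2 and 1 with panel median scaling), a share close to the 68.3% of the panel that rose. Their median log2 fold change was 1.34 (0.89 over the panel). The cytotoxic genes Gzmb (log2 fold change 2.66) and Prf1 (2.06) and the NK receptor gene Ncr1 (1.65, adjusted p = 0.00960) led, and Tbx21, a factor known to drive Cxcr3 in type 1 lymphocytes, had a log2 fold change of 1.17 (adjusted p = 0.0108). With panel median scaling Gzmb (1.43, adjusted p = 0.00130) and Prf1 (0.88, adjusted p = 0.0360) were still called, while Ncr1 (0.46) and Tbx21 (-0.056) were not. Against SE 2 of the 10 passed, Gzmb (2.77, adjusted p = 0.00773) and Prf1 (2.21, adjusted p = 0.0129), and 5 passed without SE replicate 4. Of the T cell genes, edgeR called 0 of 10 against SE (0 at an unadjusted p under 0.05, 0 by limma and by DESeq2), but 9 of 10 without SE replicate 4. In SE against PBS, edgeR and limma called 0 genes of the chemokine, interferon, TLR4, T cell and NK lists. At an unadjusted p under 0.05 there were 3 of the 17 interferon genes, 1 of the 10 interferon-gamma response genes and 0 of the TLR4, T cell and NK lists, and DESeq2 with the reference gene size factors called 2 of the 17 interferon genes.

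Markers of other cell types moved as well. All 8 monocyte and macrophage markers rose in GLA-SE against PBS (4 of 8 with panel median scaling), and the mean log2 normalized count over the list was 10.55 to 11.34 in GLA-SE tumors, 8.71 to 9.28 in PBS tumors and 8.39 to 11.41 in SE tumors. All 5 endothelium and fibroblast markers rose, with 0 of 5 called under panel median scaling (9.75 to 10.68 with GLA-SE, 8.20 to 9.17 with PBS and 8.06 to 12.05 with SE), as did 4 of 5 neutrophil markers, 3 of them under panel median scaling (7.40 to 9.54, 6.0 to 6.08 and 5.75 to 7.80). Of 7 B cell markers 0 rose and 2 fell, Ms4a1 with a log2 fold change of -0.45 and Cd79b with -0.41, and all 7 fell with panel median scaling. None of these markers was at 0 in any tumor. The top of each SE range was SE replicate 4, with 11.41 for macrophages and 12.05 for endothelium and fibroblasts against at most 10.70 and 10.13 in the other SE tumors. In that tumor Cxcl9 was the lowest of the SE tumors, and Cxcl10 and Cxcl11 lay within the range of the other 3. Against SE, 0 of 8 macrophage markers passed the edgeR test (1 at an unadjusted p under 0.05, 0 by limma, 0 or 1 by DESeq2), as did 0 of 5 endothelium and fibroblast markers (0 by each of these) and 1 of 5 neutrophil markers, Fpr2. Without SE replicate 4 the counts were again 0, 0 and 1, while the median log2 fold change moved from 0.54 to 1.15 for the macrophage markers, from -0.31 to 0.92 for the endothelium and fibroblast markers and from 1.44 to 2.52 for the neutrophil markers. In SE against PBS, edgeR and limma called 0 of all these markers (1 macrophage and 1 neutrophil marker at an unadjusted p under 0.05), and DESeq2 called 1 macrophage marker with the reference gene size factors. The part of these cells in the ligand counts was not tested.

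Likeness of pattern was measured as the root mean square difference in log2 normalized count over the 12 tumors, after subtracting each gene's own mean, across 673 genes with a mean of at least 20. Among the 5 genes nearest to Cxcl9 were Gbp2b (0.19), Il12rb1 (0.28), Clec4n (0.30) and Zbp1 (0.31), where the median gene was at 0.77. Nearest to Cxcl10 were Gbp5 (0.33), Clec4n (0.36), Gbp2b (0.37), Cxcl9 (0.37) and Socs1 (0.40), with a median of 0.94. Nearest to Cxcl11 were Cxcl10 (0.46), Gzmb (0.47), Gbp5 (0.52), Cxcl9 (0.56) and Klra2 (0.59), with a median of 1.22. Both other ligands were among the nearest genes of Cxcl11, and a guanylate binding protein gene was among the nearest of each ligand. Cxcr3 had other neighbours, namely Il7 (0.29), Cd7 (0.29), Il5ra (0.30), Itga4 (0.30) and Il6ra (0.31), with a median of 0.63. Counted from Cxcr3, its ligands Cxcl9, Cxcl10 and Cxcl11 came at places 513, 610 and 650 of the 673. These distances share the 12 tumors and their scaling, and they are a description only.

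**Figure D5:**
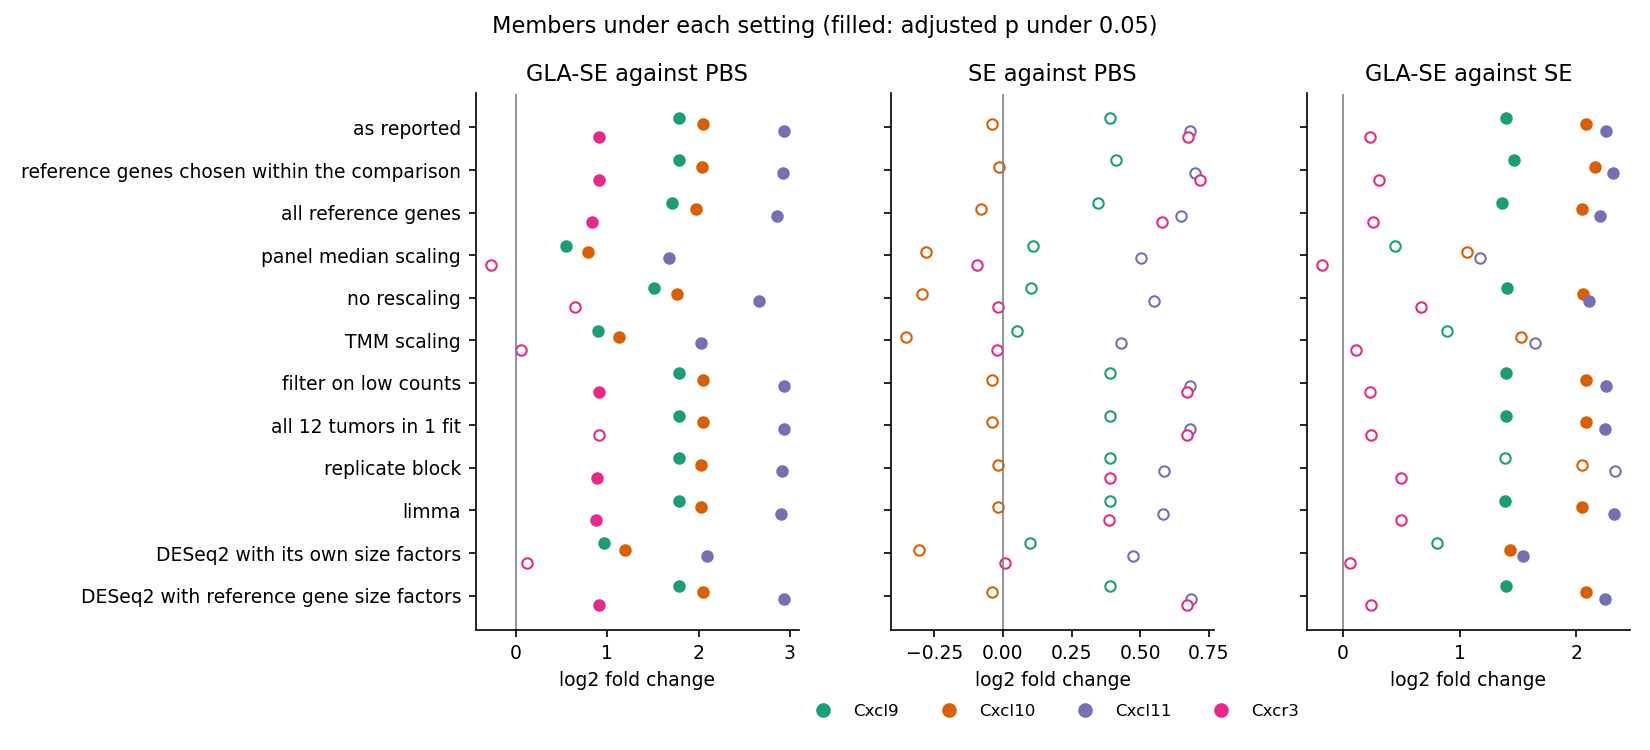
Log2 fold change (x axis) of the 4 genes under each way of scaling or testing (y axis) in the 3 comparisons, with filled points where the adjusted p was under 0.05. In GLA-SE against PBS the ligands are filled throughout, from 0.56 for Cxcl9 to 2.93 for Cxcl11, whereas Cxcr3 moves from 0.91 to -0.28 with panel median scaling.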

How the data were processed

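RNA of 12 tumors, grouped by their labels, was counted on an nCounter panel of mouse immune genes. The authors deposited 1 table of counts, whole numbers of barcodes per gene and tumor. The methods describe normalization in nSolver, but totals and reference genes differ between tumors, so the deposited counts were treated as not normalized. How the scanner images were turned into counts is not given in the sources used here. Precision is limited by the count of a gene and by 4 tumors per group. Symbols were matched to RefSeq (GRCm38.p6), with 754 of 770 found directly, 8 by a synonym and 8 not found.

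The geNorm procedure kept 17 of 20 reference genes over the 12 tumors, and each tumor was divided by their geometric mean, rescaled over the tumors. Groups were compared with edgeR 4.0.16 (quasi-likelihood test) in R 4.3.3 on the 8 tumors of each comparison, without a filter, with Benjamini-Hochberg adjustment over 750 genes and a threshold of 0.05. Exact permutation tests were two-sided over 70 assignments. Within-tumor ratios used log2(normalized count + 1). The script was tested on simulated data. Alternatives were other reference genes, panel median, no or TMM scaling, a minimum of 20 counts in 4 of 8 tumors, all 12 tumors in 1 fit, a replicate block, limma 3.58.1, DESeq2 1.42.0, a pseudocount of 10 and leaving out each tumor. The gene lists without SE replicate 4 and under other scalings and tools, and the chemokine ranks without that tumor, were added after seeing the data.

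The 4 genes, the gene lists and the tests were chosen with earlier results of these data known, and some marker lists were taken over from an earlier analysis of them. Named genes are the 4 members, the 3 largest called changes of each list, 8 interferon, T cell and NK cell genes, and the 5 genes nearest to each member, of which some are not reported here. Genes outside this rule that the text names, such as those called against SE, B cell markers, Fpr2 and the interferon alpha genes, were picked after seeing their values. Promoters come from RefSeq (GRCm38.p6), and no coordinates are given for genes without one. Plots were made in Python 3.11.15 with matplotlib 3.10.9.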

Additional observations from a re-analysis of the deposited data

Results flagged for a closer look

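Among the members, their ratios and the named genes, 5 of 54 groups of 4 tumors held a value far from the other 3, where chance gives about 1 in 20. The ratio of Cxcl11 to Cxcl9 was 0.130 in SE replicate 1 and 0.0649 to 0.0744 in the other SE tumors. The ratio of Cxcr3 to the CD3 genes was 0.338 in PBS replicate 2 and 0.150 to 0.166 in the other PBS tumors. Cd3e was 1191 normalized counts in SE replicate 4 against 146 to 284, and 573 in GLA-SE replicate 2 against 707 to 727. Ifnb1 was 7.71 normalized counts in GLA-SE replicate 1 against 12.2 to 13.0, values near the limit of counting.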

How the results depend on the processing

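In GLA-SE against PBS, Cxcl9, Cxcl10 and Cxcl11 kept their direction and their call under all 11 alternatives (log2 fold changes 0.56 to 1.79, 0.79 to 2.05 and 1.68 to 2.93) and with each tumor left out (1.62 to 1.95, 1.90 to 2.21 and 2.72 to 3.14). Cxcr3 turned to -0.28 with panel median scaling and lost its call with no rescaling (0.65), TMM scaling (0.060), all 12 tumors in 1 fit (0.91) and DESeq2 with its own size factors (0.12), and it kept it with each tumor left out (0.80 to 1.05). In SE against PBS no member was called under any alternative. Cxcr3 turned to -0.093 with panel median scaling, -0.019 with no rescaling and -0.023 with TMM scaling, and with each tumor left out Cxcr3 ranged from -0.075 to 0.93 and Cxcl10 from -0.18 to 0.11.

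In GLA-SE against SE, 0 members were called with panel median scaling (Cxcl9 0.45, Cxcl10 1.07, Cxcl11 1.18, Cxcr3 -0.18) and with TMM scaling (ligands 0.89, 1.53 and 1.64). DESeq2 with its own size factors did not call Cxcl9 (0.81). With each tumor left out, 0 to 3 members were called, with 1.23 to 1.5 for Cxcl9 (called in 3 of 8), 1.93 to 2.25 for Cxcl10 (7 of 8), 2.04 to 2.64 for Cxcl11 (3 of 8) and -0.024 to 0.98 for Cxcr3. With the replicate number as a block 0 members were called in this comparison (ligands 1.39, 2.05 and 2.33, adjusted p 0.122 to 0.136), and no other call of a member changed. Same-numbered tumors correlated at -0.25 to 0.18 in their deviations, which does not settle whether the numbers pair the tumors. The cause of these changes was not tested.

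The panel count for GLA-SE against PBS was 515, and 253 with all 12 tumors in 1 fit, 316 with TMM scaling, 353 with panel median scaling and 342 with DESeq2 and its own size factors. For GLA-SE against SE it was 16, and 0 with panel median scaling or the block, 3 with TMM scaling, 89 with no rescaling, 70 with all 12 tumors, 72 or 107 with DESeq2, and 4 to 102 with each tumor left out (102 without SE replicate 4, of which 101 were higher). In GLA-SE against PBS the median of all log2 fold changes moved from 0.89 to -0.36 with panel median scaling and -0.0087 with TMM scaling. A pseudocount of 10 changed the direction of none of the 21 ratio differences.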
